A study of Mus musculus with 11 samples.

Results

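The neutrophil marker genes S100a8, S100a9, Retnlg, Csf3r, Mmp8, Mmp9, Ly6g, Trem1, Clec4d and Clec4e were examined in bulk RNA sequencing of mice with obesity-related alcohol-induced acute pancreatitis (OA-AP). They were found by gene name in the count tables, and all 10 were among the 45260 genes listed for both tissues. Epididymal adipose tissue gave 3 control and 3 OA-AP libraries and pancreas gave 2 and 3, all from male wild-type C57BL/6J mice (C57BL/6 in the labels) aged 16 weeks. For 12 weeks controls were fed 10 kcal% fat and the OA-AP group 60 kcal% fat, after which controls were injected with saline and the OA-AP group with ethanol at 2 g/kg. Both groups had 2 intraperitoneal injections 1 h apart, and organs were taken 12 h after the first. Diet and ethanol differed together, so their effects cannot be told apart. The labels do not tie libraries to named animals, so p-values measure the spread between these libraries.

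Neutrophils are short-lived granulocytes that leave the blood for injured tissue, and their entry into the pancreas is a hallmark of acute pancreatitis. They mature under granulocyte colony-stimulating factor, which binds the receptor made from Csf3r, and carry stores of calcium-binding proteins, proteases and lectins that act on microbes and matrix. Several of these genes are not theirs alone: monocytes also transcribe S100a8, S100a9, Trem1, Clec4d and Clec4e, and many cell types can make Mmp9. In whole tissue, fewer cells of a type and less RNA per cell cannot be told apart.

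Library totals were 20825177 to 27928097 counts in adipose tissue and 14188832 to 17238919 in the pancreas. A list of 34 acinar genes held 62.1% to 75.8% of the counts in each pancreas library. The adipose libraries held under 0.002% of acinar counts except control replicate 2, which held 1.04%. Levels are given as CPM, counts scaled to the size of each library with factors set within each tissue. A differentially expressed gene (DEG) changed 1.5-fold or more with an edgeR adjusted p under 0.05.

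In adipose tissue, 8 of the 10 neutrophil marker genes were upregulated in OA-AP mice, by log2 fold changes from 3.16 to 6.58. The exceptions were Mmp9, which was not called, and Ly6g, which did not pass the filter on low counts. Across all 15839 genes tested, 12.1% were upregulated DEGs. The 9 tested marker genes had a median log2 fold change of 4.32, against -0.01 for all genes tested. On the CPM scale 9 of the 10 genes were higher in every OA-AP library than in any control library. Among genes tested this held for 8 of the 9 marker genes and for 26.4% of all genes. Some of the 9 passed the filter through the OA-AP libraries alone, so these counts and the median are descriptions. The plot of CPM by library shows the separation gene by gene.

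**Figure D1:**
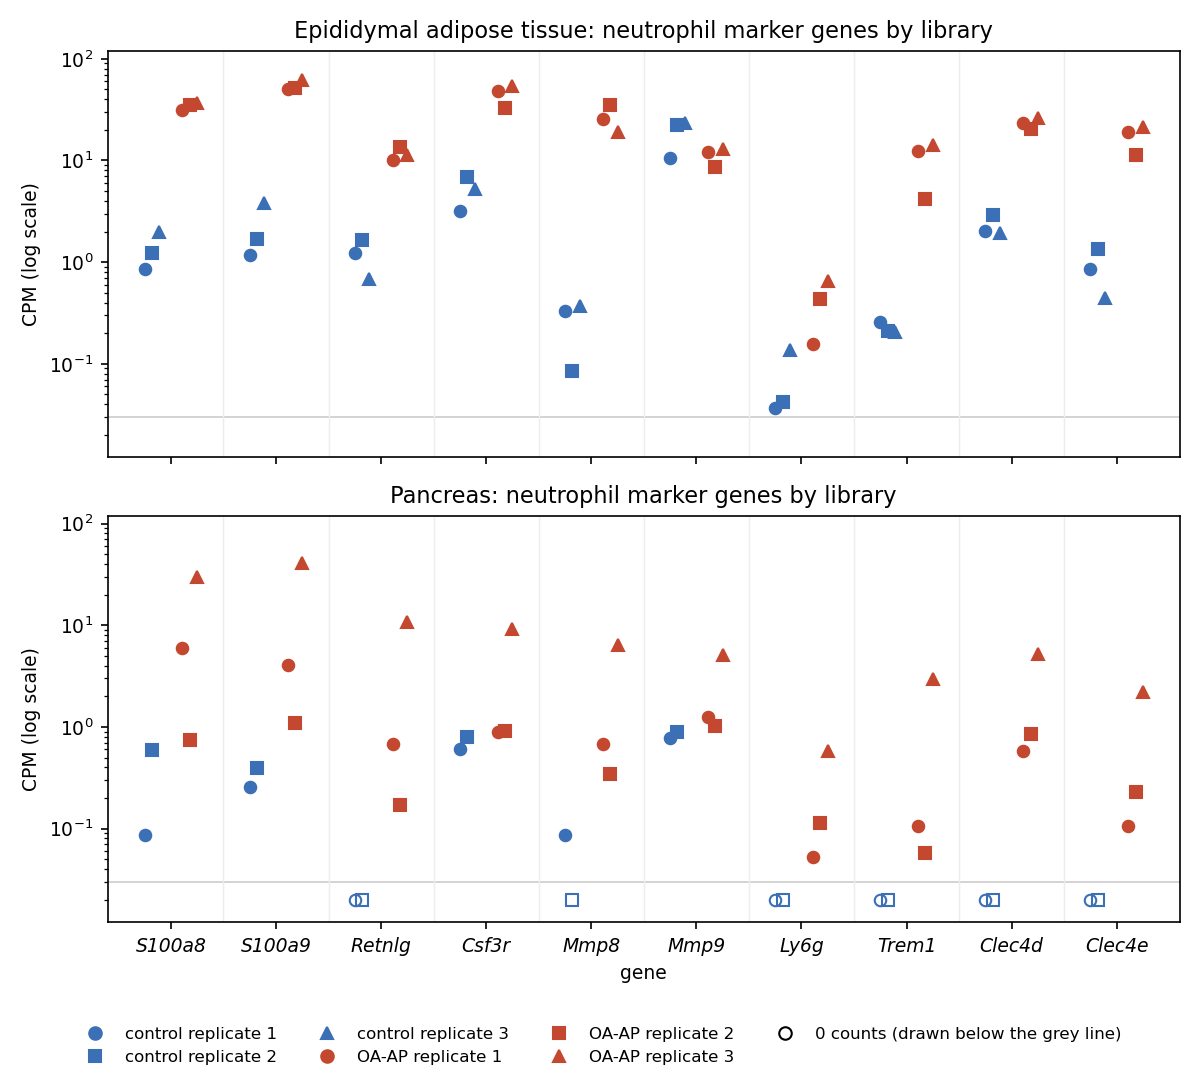
CPM on a log scale of each neutrophil marker gene in every library of adipose tissue (top) and pancreas (bottom), with blue points for control and red points for OA-AP and open points below the grey line for libraries with 0 counts. In adipose tissue the groups overlap for Mmp9 alone, and in the pancreas OA-AP replicate 3 is the highest library for all 10 genes.

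S100a8 and S100a9 encode the subunits of calprotectin, a calcium- and zinc-binding complex abundant in the neutrophil cytosol. S100a9 lies at chr3:90692632-90695721 on the minus strand and S100a8 at chr3:90668978-90670035 on the plus strand of GRCm38. In adipose tissue S100a9 was at 1.18, 1.69 and 3.81 CPM in control replicates 1 to 3 and at 50.6, 51.8 and 61.4 CPM in OA-AP replicates 1 to 3. S100a8 was at 0.849, 1.23 and 1.97 CPM in control and 31.0, 35.0 and 36.7 CPM in OA-AP libraries. Every OA-AP library was above every control library for both genes, and the OA-AP libraries were close together. The mean of S100a9 was 2.23 ± 1.39 CPM (SD, n = 3) in control and 54.6 ± 5.93 CPM (SD, n = 3) in OA-AP mice. The edgeR log2 fold change was 4.59 (SE 0.40, adjusted p = 0.000714) for S100a9 and 4.65 (SE 0.28, adjusted p = 0.00022) for S100a8. Counts of S100a8 per count of S100a9 were 0.518 to 0.725 in control and 0.598 to 0.675 in OA-AP adipose tissue, so their ratio overlapped between groups.

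The stretches 250 bases before the start are shown for 4 of the marker genes upregulated in adipose tissue. A list of motifs for granulocyte and inflammatory factors was searched in these stretches. They are RefSeq sequences on GRCm38.p6, 5′ to 3′ on the strand of the gene, at chr3:90668821-90669070 (plus) for S100a8, chr3:90695722-90695971 (minus) for S100a9, chr9:7558179-7558428 (plus) for Mmp8 and chr17:48232489-48232738 (plus) for Trem1. Capitals mark matches, on either strand, to the C/EBP letters TTGCNNAA, the PU.1 letters GAGGAA, the AP-1 letters TGANTCA, the NF-kB letters GGGANTTTC and the TATA box letters TATAAA. In S100a8 a PU.1 match and the TATA box match are adjacent and run together. The start used for S100a8, at 90669071, lies inside the gene span given above, so the end of its stretch does too.
S100a8: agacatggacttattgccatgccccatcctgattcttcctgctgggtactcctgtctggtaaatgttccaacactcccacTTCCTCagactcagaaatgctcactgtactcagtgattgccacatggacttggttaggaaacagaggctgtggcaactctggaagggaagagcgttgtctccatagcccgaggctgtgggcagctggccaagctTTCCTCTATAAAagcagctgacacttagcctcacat
S100a9: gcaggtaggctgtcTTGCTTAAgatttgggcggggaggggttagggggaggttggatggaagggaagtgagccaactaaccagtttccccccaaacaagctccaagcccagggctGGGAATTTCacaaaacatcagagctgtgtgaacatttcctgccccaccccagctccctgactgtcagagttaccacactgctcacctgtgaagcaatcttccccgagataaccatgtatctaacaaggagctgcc
Mmp8: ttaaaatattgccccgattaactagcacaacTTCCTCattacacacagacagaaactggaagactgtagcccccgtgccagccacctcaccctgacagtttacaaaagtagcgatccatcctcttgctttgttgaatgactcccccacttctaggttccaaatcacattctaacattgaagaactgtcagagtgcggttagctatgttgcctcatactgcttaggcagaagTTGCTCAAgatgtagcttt
Trem1: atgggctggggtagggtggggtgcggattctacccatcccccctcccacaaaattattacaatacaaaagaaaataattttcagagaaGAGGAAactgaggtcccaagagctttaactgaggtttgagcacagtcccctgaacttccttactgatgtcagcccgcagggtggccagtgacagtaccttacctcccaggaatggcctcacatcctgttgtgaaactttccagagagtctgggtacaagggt

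Of the 10 genes, 9 had such a sequence; Mmp9 had no entry. The C/EBP letters were found in 5 of the 9 (S100a9, Retnlg, Mmp8, Ly6g and Clec4e), against 9.56% of 32851 promoters of the same length. The percentages are of promoters, whereas Ly6g, which has more than 1 start, counted if any of its stretches had a match. Its C/EBP match lay before the start at 75155261, and there was none before that at 75155329. The PU.1 letters were found in 7 of the 9, against 23.3% of promoters. The TATA box letters were in 3 of the 9, against 12.4%, the NF-kB letters were in 1 (S100a9), against 0.941%, and the AP-1 letters were in none, against 6.75%. In S100a9 the C/EBP match lay at -236 to -229 from the start, whereas in Mmp8 it lay at -19 to -12. A match describes letters and does not show that a factor binds there.

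Retnlg encodes a resistin-like secreted protein of granulocytes. In adipose tissue it was at 1.22, 1.65 and 0.681 CPM in control and 10.004, 13.5 and 11.2 CPM in OA-AP libraries, with no overlap. Its log2 fold change was 3.30 (SE 0.31, edgeR adjusted p = 0.000713). Retnlg has close relatives in the resistin family, and Ly6g in the Ly6 family, so reads that fit several of them make these counts uncertain.

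Csf3r, the receptor for granulocyte colony-stimulating factor, was at 3.17, 6.82 and 5.24 CPM in control and 48.7, 33.0 and 53.8 CPM in OA-AP adipose tissue. The groups did not overlap. Its log2 fold change was 3.16 (SE 0.31, edgeR adjusted p = 0.000991), the smallest among the 8 upregulated marker genes.

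Mmp8, the collagenase stored in neutrophil granules, was at 0.332, 0.0847 and 0.374 CPM in control and 25.4, 35.3 and 19.1 CPM in OA-AP adipose tissue. The control libraries held 2 to 11 counts of Mmp8, and the OA-AP libraries 379 to 734. This was the largest change among the marker genes tested (log2 fold change 6.58, SE 0.42, edgeR adjusted p = 0.000269). Mmp9, a gelatinase, was at 10.5, 22.6 and 23.3 CPM in control and 12.0, 8.56 and 12.9 CPM in OA-AP libraries. The Mmp9 groups overlapped, because control replicate 1 lay among the OA-AP libraries. Its log2 fold change was -0.75 (SE 0.32, edgeR adjusted p = 0.109). Without control replicate 1 it was -1.03 with an adjusted p of 0.0152, so the missing call for Mmp9 rested on that library.

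Among the surface receptors, Trem1, which amplifies inflammatory signals in myeloid cells, was at 0.258, 0.212 and 0.204 CPM in control and 12.4, 4.13 and 14.3 CPM in OA-AP adipose tissue. OA-AP replicate 2 was the lowest of its group and still above every control. Its log2 fold change was 5.48 (SE 0.58, edgeR adjusted p = 0.00119). Clec4d and Clec4e are neighbouring C-type lectin receptor genes on chromosome 6 that sense glycolipids and signal through the Fc receptor gamma chain. Clec4d was at 2.03, 2.88 and 1.94 CPM in control and 23.2, 20.6 and 26.3 CPM in OA-AP libraries (log2 fold change 3.36, SE 0.19, edgeR adjusted p = 0.000187). Clec4e was at 0.849, 1.36 and 0.443 CPM in control and 19.2, 11.4 and 21.5 CPM in OA-AP libraries (log2 fold change 4.32, SE 0.42, edgeR adjusted p = 0.000867). The groups did not overlap for either lectin. Ly6g, the surface protein by which mouse neutrophils are usually sorted, had 1, 1 and 4 counts in control and 3, 9 and 13 counts in OA-AP adipose tissue, and did not pass the filter. Without the filter it was called (log2 fold change 2.38, SE 0.72, edgeR adjusted p = 0.0318), and by DESeq2 it was not (adjusted p = 0.0528).

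Levels were compared between genes relative to gene length. In adipose tissue of OA-AP mice S100a9 led with a mean of 105 CPM per kb, followed by S100a8 with 49.3 and Retnlg with 19.5 CPM per kb, and the libraries of these 3 genes did not overlap. Clec4d, Csf3r and Mmp8 came next at 14.6, 12.5 and 10.97 CPM per kb, and their libraries overlapped. Clec4e, Trem1 and Mmp9 followed at 3.49, 3.44 and 3.16 CPM per kb, also overlapping, and Ly6g was last at 0.44 CPM per kb. In control mice the highest means were those of Mmp9 and S100a9, at 5.31 and 4.27 CPM per kb, and their libraries overlapped.

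The make-up of the summed marker counts shifted with these changes, as the stacked bars of each library show. Csf3r and Mmp9 together held 66.97% to 76.3% of the 10 genes' counts in control adipose tissue and 19.5% to 26.1% in OA-AP adipose tissue. The adipose Mmp9 share was 51.4% to 61.1% in control and 4.01% to 5.17% in OA-AP libraries. The adipose Csf3r share did not fall, at 13.8% to 17.7% in control and 15.5% to 20.9% in OA-AP libraries, with overlap. In the pancreas Csf3r and Mmp9 together held 76.2% (exact binomial 95% interval 52.8% to 91.8%) and 63.0% (42.4% to 80.6%) in control libraries. In OA-AP pancreas they held 14.9% (10.9% to 19.6%), 35.1% (25.6% to 45.4%) and 12.8% (11.4% to 14.2%). This pair was chosen after its values were seen, and the intervals cover counting error only.

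**Figure D2:**
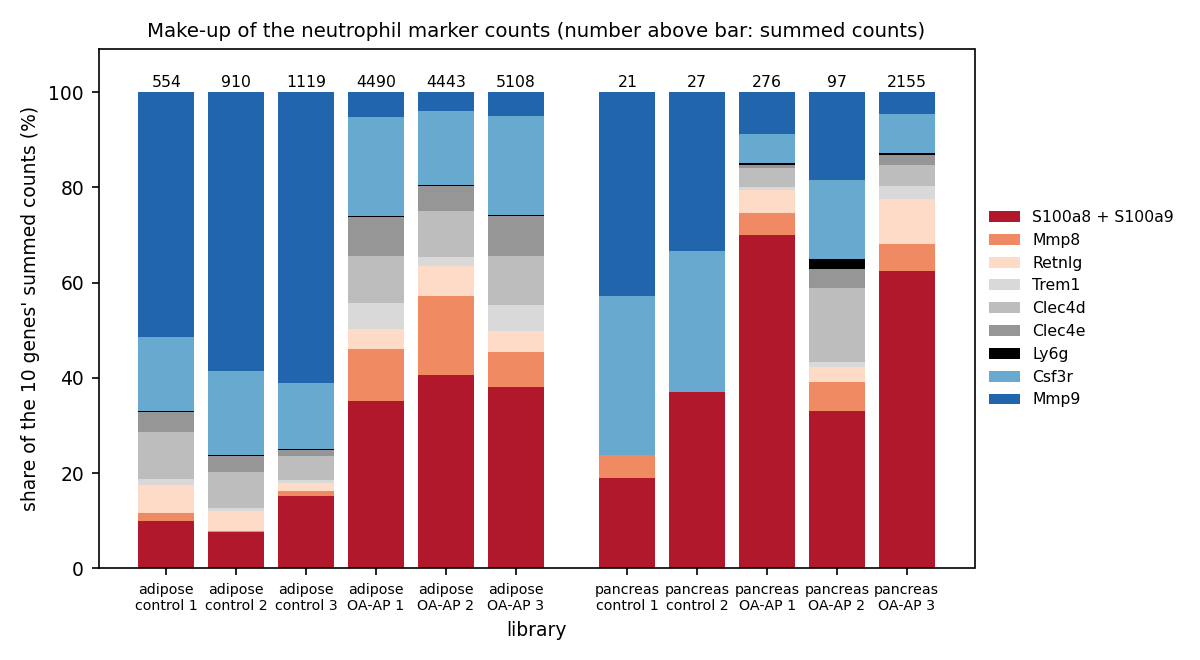
Share in percent of each neutrophil marker gene in the summed counts of the 10 genes, 1 bar for each of the 11 libraries, with the summed count above the bar. Mmp9 and Csf3r (blue) fill most of every control bar, and S100a8 with S100a9 (red) fills 35.1% to 40.6% of the OA-AP bars in adipose tissue.

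In the pancreas none of the 10 genes was a DEG by edgeR, although all 10 were higher in every OA-AP library than in either control library. Such a separation was seen for 32.9% of the 12884 genes tested there, and 16.2% were upregulated DEGs. The filter kept 7 marker genes, all 7 with this separation, and left out Ly6g, Trem1 and Clec4e. Retnlg and Clec4d, with 0 counts in both controls, passed it through the OA-AP libraries alone. At an unadjusted p under 0.05 edgeR called 1, Clec4d (adjusted p = 0.0721). DESeq2, which was run on all genes with a count, called 7: S100a8, S100a9, Retnlg, Csf3r, Mmp8, Clec4d and Clec4e. It gave no adjusted p for Ly6g. By DESeq2 8.37% of all 23572 genes with a count were upregulated DEGs, where a gene without an adjusted p counts as not called.

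The spread within the OA-AP group was wide. The summed marker level was 1.80 and 2.69 CPM in the control libraries and 14.5, 5.55 and 113 CPM in OA-AP replicates 1 to 3. OA-AP replicate 3 was the highest of its group for all 10 genes, by 4.48 times (Mmp9) to 36.1 times (Trem1) the mean of the other OA-AP libraries. Without it, edgeR called S100a9 (log2 fold change 2.93, SE 0.74, adjusted p = 0.00749) and Clec4d (adjusted p = 0.00245), beside 16.9% upregulated DEGs among all genes tested. The plot of fitted changes sets these values against those of adipose tissue.

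**Figure D3:**
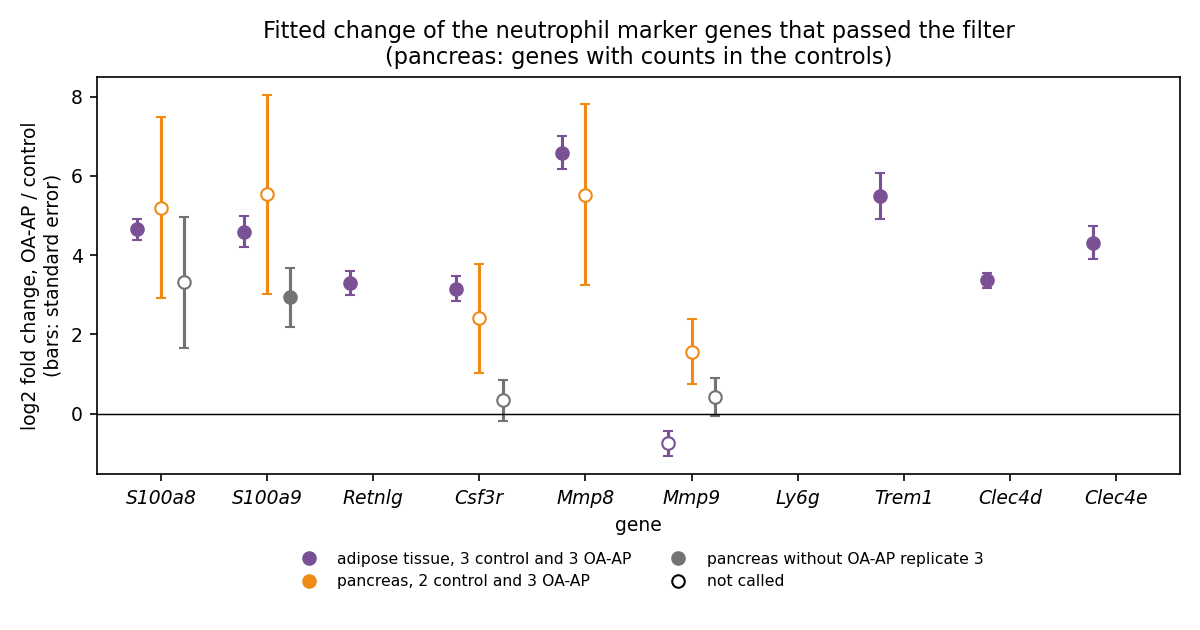
Log2 fold change of OA-AP over control with its standard error, for adipose tissue (purple), pancreas (orange) and pancreas without OA-AP replicate 3 (grey); filled points passed the DEG thresholds, and pancreas genes with 0 counts in both controls are not drawn. The pancreas bars are longer than the adipose bars for every gene drawn in both, and Mmp9 is the single gene below 0 in adipose tissue.

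S100a9 had 3 and 4 counts in the control pancreas and 78, 19 and 778 counts in OA-AP replicates 1 to 3. S100a8 had 1 and 6 counts in control and 115, 13 and 566 in OA-AP libraries. The fitted log2 fold changes were 5.53 (SE 2.51, edgeR adjusted p = 0.166) for S100a9 and 5.19 (SE 2.28, adjusted p = 0.156) for S100a8. For both genes the errors were many times those in adipose tissue.

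Csf3r had 7 and 8 counts in control and 17, 16 and 177 in OA-AP pancreas. On the CPM scale OA-AP replicates 1 and 2, at 0.892 and 0.915 CPM, were just above the higher control at 0.798 CPM, so the separation was narrow but for replicate 3. Its log2 fold change was 2.40 (SE 1.37, edgeR adjusted p = 0.23). Without OA-AP replicate 3 it was 0.33 (SE 0.52).

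Mmp9 had 9 counts in each control and 24, 18 and 98 in OA-AP libraries (log2 fold change 1.57, SE 0.81, edgeR adjusted p = 0.178). Without OA-AP replicate 3 its log2 fold change was 0.41 (SE 0.49). Mmp8 had 1 and 0 counts in control and 13, 6 and 122 in OA-AP libraries. The ratio of its summed counts, scaled by library size, was 54.9 with a Poisson 95% interval of 9.70 to 2185 for counting error alone. The ratio of its group means was 57.5, and 11.95 without OA-AP replicate 3, which held most of the counts.

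The other 5 genes had 0 counts in both control libraries, so their changes are bounds against 3 counts per control library. Retnlg had 13, 3 and 206 counts in the OA-AP libraries and was at least 13.9-fold higher by group means. Clec4d, with 11, 15 and 99 counts, was at least 7.92-fold higher. Trem1 had 2, 1 and 56 counts and Clec4e 2, 4 and 42 counts, at least 3.70-fold and 3.03-fold higher. Ly6g had 1, 2 and 11 counts, and its mean was below that floor. Apart from Clec4d and Retnlg replicate 1, OA-AP replicates 1 and 2 held 1 to 4 counts of each of these genes, so the bounds rested on replicate 3. Without it Retnlg was at least 1.53-fold and Clec4d at least 2.58-fold higher, and the means of Trem1 and Clec4e were below the floor.

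Whether the change differed between the tissues was tested as a tissue by condition term over all 11 libraries. None of the 10 genes was called by edgeR, against 21.3% of the 17046 genes tested. At an unadjusted p under 0.05 there was 1, Mmp9, whose log2 change in adipose tissue minus that in the pancreas was -2.34 (SE 0.93, edgeR adjusted p = 0.104). DESeq2 called Mmp9 (adjusted p = 0.036). The difference was 0.72 (SE 1.52, edgeR adjusted p = 0.803) for Csf3r and -0.98 (SE 2.65, adjusted p = 0.857) for S100a9. Without pancreas OA-AP replicate 3 the Csf3r difference was 2.76 (SE 0.69, adjusted p = 0.0158), so that library decided this call.

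Markers of other cells moved beside the neutrophil marker genes in adipose tissue, as the plot of list sums shows. Markers said to rise or fall were DEGs, and 12.1% of all genes tested were upregulated and 13% downregulated DEGs. Of 7 monocyte markers 4 rose and none fell, and their summed level was 248 to 275 CPM in control and 508 to 818 CPM in OA-AP libraries. None of the 7 was at 0 in any adipose library. Per 1000 counts of that list, the marker genes had 78.6 to 153 counts in control and 316 to 421 in OA-AP libraries, without overlap. The monocyte list includes Chil3, which rose and is also in the list of granule proteins below. Of 11 macrophage markers 3 rose and 2 fell, with overlapping sums of 773 to 1051 CPM and 685 to 1139 CPM. All 4 B cell markers fell, also without control replicate 2, from sums of 6.05 to 38.6 CPM (the highest in that library) to 1.45 to 2.32 CPM. Of the markers tested, 3 of 6 for mast cells and basophils, 2 of 5 for T cells and 1 of 2 for eosinophils also fell. None of these rose, and the T cell and eosinophil calls were lost without control replicate 2. Of 5 platelet markers 4 were tested and 2 rose (40.9 to 53.9 CPM against 64.9 to 104 CPM). Of 5 red blood cell markers 2 rose, and neither was called without control replicate 2. The part of these cells in the result was not tested.

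**Figure D4:**
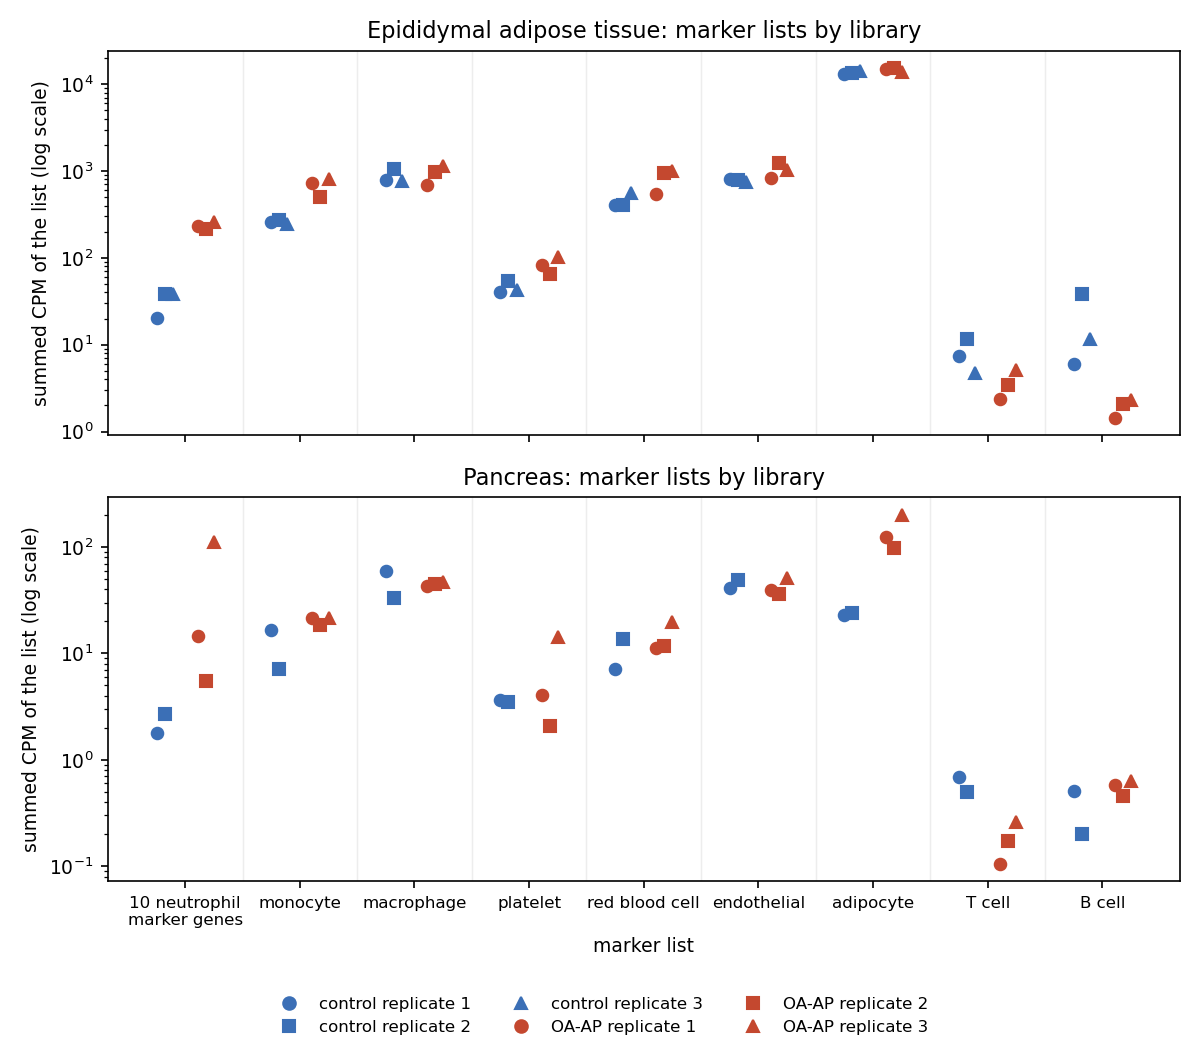
Summed CPM on a log scale of the 10 neutrophil marker genes and of 8 marker lists for other cells, by library, in adipose tissue (top) and pancreas (bottom), blue for control and red for OA-AP. In the pancreas OA-AP replicate 3 is highest for the neutrophil marker genes at 113 CPM and also for the platelet, red blood cell and adipocyte lists. By smaller margins it is also highest for the monocyte, endothelial and B cell lists.

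In the pancreas, OA-AP replicate 3 was also the highest library for several of these lists. Its platelet list was at 14.1 CPM against 2.06 to 4.09 CPM in the other pancreas libraries, with 1 of 5 markers at 0 in every library. Its red blood cell list was at 19.9 CPM against 7.12 to 13.7 CPM, with none of 5 markers at 0. No platelet or red blood cell marker was a DEG there. The adipocyte list was at 23.0 and 23.9 CPM in control and 125, 99.0 and 202 CPM in OA-AP replicates 1 to 3. Both adipocyte markers that passed the filter were upregulated DEGs, as were 16.2% of all genes tested. In each pancreas library 1 to 5 of the 7 adipocyte markers were at 0. Per 1000 adipocyte-list counts, the neutrophil marker genes had 78.4 and 112.5 counts in control pancreas and 116, 56.1 and 559 in OA-AP pancreas, against 14.0 to 18.5 in OA-AP adipose tissue. Per 1000 monocyte-list counts they had 109.4 and 375 in control pancreas and 680, 298 and 5193 in OA-AP replicates 1 to 3. The groups overlapped on both of these ratios, and replicate 3 was above every control on both. Per 1000 platelet-list counts they had 488 and 771 in control and 3538, 2694 and 7981 in OA-AP replicates 1 to 3, without overlap. Relative to the red blood cell, macrophage and endothelial lists the groups did not overlap either, with OA-AP higher. The part of blood cells in the pancreas result was not tested.

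Other genes of neutrophil function were taken as 6 lists with 68 genes. In adipose tissue 60 were tested, of which 37 were upregulated and 6 downregulated, against 12.1% and 13% of all genes, and their median log2 fold change was 1.00. Without control replicate 2 the counts were 37 and 3. Some of the 60 passed the filter through the OA-AP libraries alone, so these counts and the median are descriptions. Genes are named here by a rule of the smallest p within each list, and 1 of the 6 lists is not described further.

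Among chemotaxis and adhesion receptors 8 of 13 rose in adipose tissue and 1 fell, a call lost without control replicate 2. Il1r2, the decoy receptor for interleukin-1, went from 0.338 ± 0.031 to 28.2 ± 2.46 CPM (SD, n = 3 each; log2 fold change 6.36, edgeR adjusted p = 1.3e-05). Cxcr2, the chemokine receptor that draws neutrophils out of the marrow, went from 0.329 ± 0.236 to 13.3 ± 2.98 CPM (log2 fold change 5.29, edgeR adjusted p = 0.000562). Fpr1, the receptor for formylated peptides, and Itgam, the alpha chain of the integrin Mac-1, rose by log2 fold changes of 4.39 and 1.24.

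The list of granule proteins had 12 genes, of which Ltb4r1, the leukotriene B4 receptor, is a surface receptor. In adipose tissue 7 of them passed the filter, 4 rose and 2 fell, but neither fall was called without control replicate 2. Mpo, Ctsg, Ltf, Camp and Ngp did not pass it. Lcn2, the iron-scavenging lipocalin, had the largest rise among those named (log2 fold change 6.65, SE 0.73, edgeR adjusted p = 0.00148), followed by Chil3 at 5.40. Hp, haptoglobin, which adipocytes also make, rose by 1.95, and Ltb4r1 by 1.64.

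Ligands, adaptors and inhibitors that act with the marker genes gave 10 upregulated and 1 downregulated of 16 in adipose tissue. Csf3, the ligand of the Csf3r receptor, was at 0.0340 to 0.111 CPM in control and 1.76 to 3.27 CPM in OA-AP libraries (log2 fold change 4.98, SE 0.45, edgeR adjusted p = 0.000624). Timp1, an inhibitor of matrix metalloproteinases such as those from Mmp8 and Mmp9, was at 4.65 ± 0.722 CPM in control and 253 ± 71.3 CPM in OA-AP libraries (SD, n = 3 each; log2 fold change 5.76, edgeR adjusted p = 0.000179). Socs3 and Stat3, of the pathway below Csf3r, rose by log2 fold changes of 3.87 and 1.36. Of the granulocyte transcription factors, Cebpb and Spi1 (which encodes PU.1) rose by 1.51 and 0.73, and Cebpa, also a main factor of adipocytes, fell by 1.30 on the log2 scale. Among other neutrophil-enriched genes 12 of 16 rose and 1 fell. Stfa2l1, Cd300lf, Lrg1 and Hdc had log2 fold changes of 4.81, 4.18, 2.51 and 2.49.

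In the pancreas 44 of the 68 genes were tested, of which 12 were upregulated and 2 downregulated, against 16.2% and 13.5% of all genes. Without OA-AP replicate 3 the counts were 11 and 4 of 35. Here too some passed the filter through the OA-AP libraries alone, so the counts are descriptions. Lrg1, a secreted glycoprotein of the acute phase, was at 7.71 ± 0.230 CPM in control (SD, n = 2) and 1800 ± 537 CPM in OA-AP libraries (SD, n = 3), with a log2 fold change of 7.87 (SE 0.35, edgeR adjusted p = 3.12e-05). Lcn2 was at 0.601 and 1.10 CPM in control and between 101.5 and 306 CPM in OA-AP libraries (log2 fold change 7.86, edgeR adjusted p = 0.00126). Both are also made outside neutrophils. Stat3 rose by a log2 fold change of 3.08, Cebpb by 2.19, Timp1 by 3.60, Hp by 3.28, C5ar1, the receptor for complement C5a, by 2.37, Pirb by 1.92, Bcl10, an adaptor below lectin receptors, by 1.40 and Jak2, the kinase bound to the Csf3r receptor, by 0.90. Spi1 rose by 1.31, a call lost without OA-AP replicate 3 (edgeR adjusted p = 0.0676). Itgb2, the common beta chain of leukocyte integrins, fell by 1.42 on the log2 scale, and Gfi1, a repressor in granulocyte development, fell by 2.85.

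The genes whose pattern over the 11 libraries was most like the mean of the marker genes were Pxn (Pearson r = 0.981), Cxcl1 (0.978), Ier5, Cd177, Trip10, Stx11, Dhx8, Cd14, 4833407H14Rik and Cxcl2 (0.961). The libraries share 2 tissues, 2 conditions and 1 joint scaling, so r is a description. Cd177, a surface glycoprotein of neutrophils, had r = 0.975. Among the 10 marker genes themselves, r with their mean was lowest for Mmp9, at 0.564, and 0.827 to 0.974 for the other 9. Each of the 10 is part of that mean, so these r are partly built in.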

How the data were processed

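Total RNA of pancreas and epididymal adipose tissue was sequenced on an Illumina platform. Per the submitters' processing notes the authors trimmed reads with Trim Galore (0.6.6), checked them with fastp (0.20.1) and counted them with featureCounts (2.0.1) after mapping with STAR to GRCm38. The deposited values are raw counts for each gene in each library. The annotation release and strand setting are not given in the sources used here.

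The 10 genes, the gene lists and the tests were chosen with earlier results of these data known. Low counts were removed with filterByExpr, libraries scaled with TMM, and each tissue tested apart with edgeR (4.0.16, R 4.3.3) by the robust quasi-likelihood test with Benjamini-Hochberg adjustment over all genes tested. DEGs changed 1.5-fold or more with an adjusted p under 0.05. SE is the log2 fold change over the square root of F. The tissue by condition term used all 11 libraries. Genes with 0 control counts were bounded at 3 counts per library, and such floors cover counting error only. Correlations used log2 CPM with a prior count of 2. In adipose tissue and pancreas, per gene length means the length in the authors' pancreas table.

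Genes were named by rule: all 10 marker genes, up to 4 DEGs with the smallest p per neutrophil list and tissue, and the 10 genes most like their mean. Some further items under this rule are left out. Some genes in several lists count under each. Alternatives were DESeq2 (1.42.0), its size factors, library totals, factors without acinar genes, no filter, 10 counts in every library of a group, a fold change of 2, all 11 libraries in 1 fit, each library left out and a replicate block. The tests were tested on simulated data: fold changes were recovered, but when gene-specific dispersions from these libraries were used, false calls within each tissue made up more of the calls than the nominal rate.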

Additional observations from a re-analysis of the deposited data

How the results depend on the processing

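In adipose tissue the number of upregulated marker genes stayed within 1.5 times of 8 under every alternative run. Single calls moved there for Retnlg with all 11 libraries in 1 fit (adjusted p = 0.0543), for Mmp9 without control replicate 1, and for Ly6g, called without a filter (adjusted p = 0.0318). In the pancreas the count of 0 became 7 with DESeq2, 2 with library totals alone, 3 without a filter, 3 with all 11 libraries in 1 fit and 5 with a replicate block. Leaving out 1 library at a time gave 0 to 2: Clec4d without OA-AP replicate 1, S100a8 and Mmp8 without replicate 2, and S100a9 and Clec4d without replicate 3. For the tissue by condition term the count of 0 became 1 with library totals alone (Mmp9), 1 with DESeq2 (Mmp9) and 1 with a replicate block (Csf3r), and leaving out 1 library gave 0 to 1. No called value changed sign, but uncalled tissue by condition differences did. With a replicate block S100a8 went from -0.59 to 1.46, S100a9 from -0.98 to 1.73 and Trem1 from -3.44 to 0.12, and with library totals alone Csf3r went from 0.72 to -0.040. Leaving out 1 library at a time gave -2.47 to 1.25 for S100a8, -1.53 to 1.57 for S100a9, -4.09 to 0.10 for Trem1 and -3.67 to 3.13 for Mmp8. Without pancreas OA-AP replicate 3 the first 3 of these were above 0, and without pancreas control replicate 1 S100a8 was 0.28 and Mmp8 -3.67. The pancreas has no control replicate 3, so with a replicate block OA-AP replicate 3 does not inform the pancreas change. The pancreas log2 fold changes with the block were near those without that library. They were 2.98 and 2.93 for S100a9 and 0.38 and 0.33 for Csf3r. The cause of the other moves was not tested.

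Library totals alone moved the median log2 fold change of all genes to 0.75 from 0.04 in the pancreas, with 45.4% upregulated DEGs against 16.2%, and to -0.17 from -0.01 in adipose tissue. Deviations of same-numbered control and OA-AP adipose libraries correlated at -0.006, 0.06 and -0.16, and same-numbered libraries of both tissues at -0.012 to 0.09. Libraries with different numbers were not compared, so these values do not show whether the samples are paired. The block is thus an alternative only. Pancreas control counts of 0 to 9 per marker gene limit every fold change there.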
